A study of Saccharomyces cerevisiae with 12 samples.

Results

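The genes of the yeast proteasome were followed together with RPN4, which encodes their common transcription factor. Members were chosen by name: genes called PRE, PUP, RPN or RPT with a number, and SCL1, UMP1 and ECM29. This gave 36 genes among 6412 genes and other features counted, namely 35 proteasome genes and RPN4, which is reported apart. The 35 comprised 7 genes of the alpha ring and 7 of the beta ring of the 20S core particle. They further comprised 6 ATPases and 4 non-ATPase subunits of the 19S base, 8 subunits of the 19S lid, and 3 assembly or associated factors. All 36 passed the filter on low counts, with 260 to 8195 read pairs per gene and sample.

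Polyadenylated RNA of budding yeast was sequenced in 3 groups of 4 replicates, and cells of every group had first been held in G1 by the mating pheromone α-factor for 2.5 h. Wild-type S cells (strain E3087) were then released for 30 min into fresh medium. CDK/DDK bypass G1 cells (strain YKR1503) stayed in the arrest for 3 h while Dpb11, Sld2-T84D and Dbf4 were made from galactose-inducible promoters, so that they replicated DNA in G1. Wild-type G1 cells (strain YKR1500) underwent the same 3 h of induction without these constructs. Strain and condition cannot be told apart, since each group is a strain of its own. In S cells the shorter arrest and the fresh medium cannot be told apart from cell cycle phase either. The sample labels do not say whether replicates came from separate cultures, so that p-values measure only the spread between these samples. The groups were set apart as labelled: the 3 induced genes were higher in bypass cells than in wild-type G1 cells by a median log2 fold change of 5.71. In wild-type S cells relative to wild-type G1 cells the median was -6.26 for 5 pheromone genes, 3.33 for 6 G1/S genes and 4.90 for 4 histone genes. The bypass and wild-type G1 groups still differed in the histone genes, with all 4 called higher in bypass cells (median 1.27), beside 26.0% of all genes. Of the 6 G1/S genes, 1 was called higher and 1 lower in bypass cells (median -0.15), beside 26.0% and 28.5% of all genes. Of the 4 galactose genes checked, 2 were called higher in S than in wild-type G1 cells, GAL2 (log2 fold change 0.73, adjusted p = 3.59e-08, edgeR) and GAL10 (0.44, adjusted p = 2.38e-05), and 0 lower. Over all genes tested, 40.4% were called higher and 43.3% lower in this comparison, and the count of higher galactose genes is near that share. The level of GAL1, scaled for exon length (TPM), averaged 5150 TPM in S, 6571 TPM in bypass and 5648 TPM in wild-type G1 cells, although the labels of S cells do not name galactose. On the TPM scale the median of all genes was shifted by a log2 ratio of -0.23 in S relative to wild-type G1 cells. In the fit GAL1 was not called in this comparison (log2 fold change 0.076, adjusted p = 0.2739, edgeR). Samples held 8162140 to 10545835 read pairs on genes. In each group, replicates 1 and 2 resembled each other more closely than they did replicates 3 and 4, and 3 and 4 likewise formed a pair. The split was by far the widest in wild-type G1. There, the mean chi-square of the counts per gene was 43.2 to 46.6 between samples of different pairs. It was 7.33 to 7.96 in S and 3.02 to 3.49 in bypass cells. In bulk RNA, fewer cells expressing a gene and less RNA per cell cannot be told apart.

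The proteasome degrades proteins marked with ubiquitin. Its core particle is a barrel of alpha and beta rings with the proteolytic sites inside, and the regulatory particle on its end binds, unfolds and deubiquitinates the substrate. Rpn4 activates these genes in yeast by binding a short promoter sequence, the proteasome-associated control element, and is itself a short-lived substrate of the proteasome, which makes a feedback loop.

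The element, GGTGGCAAA on either strand, was present in the window from 250 bases before to 50 bases after the start codon of 28 of the 35 proteasome genes (80.0%), against 71 of 5976 windows of all genes (1.19%). A further 5 windows held the 7 inner letters GTGGCAA and not the full element, against 209 windows of all genes (3.50%), and RPN13 and RPN14 held neither. Each of the 28 windows held the full element once, with its first base 183 to 84 bases before the start codon (median 122). It ran with the gene in 20 of them and against it in 8. The window of RPN4 held neither form. The stretches below show the element and its flanks in the 4 genes that were highest in bypass cells relative to wild-type G1 cells, in RPN11, and in 3 genes that carry the element but were not called in that comparison. They are given in assembly R64 (sacCer3) on the strand that carries the element, which is in capitals:
ECM29, chr8:39943-39971, plus strand: gccttttcttGGTGGCAAAaaaaaggtac
RPN3, chr5:196843-196871, minus strand: ctctttcttgGGTGGCAAAtgtttttcgt
PRE1, chr5:177683-177711, plus strand: aaatctttacGGTGGCAAAaaataaagaa
RPT2, chr4:437906-437934, plus strand: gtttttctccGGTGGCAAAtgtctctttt
RPN11, chr6:153259-153287, plus strand: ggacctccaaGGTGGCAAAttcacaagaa
PRE10, chr15:1018856-1018884, minus strand: cctctaaatcGGTGGCAAAaataagaaag
PRE7, chr2:141150-141178, plus strand: aaactcaaagGGTGGCAAAaacaagcggt
RPT4, chr15:813802-813830, plus strand: ctttcccttcGGTGGCAAAttccactatt

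The 5 genes with the inner letters alone are shown because they include PUP1 and UMP1, which were not higher in bypass cells, with the 7 letters in capitals:
PUP1, chr15:631892-631918, minus strand: acccggccgaGTGGCAAaataccaaaa
UMP1, chr2:582268-582294, minus strand: taaccatgcaGTGGCAAttttatccta
PRE5, chr13:901553-901579, plus strand: ctattatagaGTGGCAAaattaaaaat
RPN8, chr15:817086-817112, minus strand: ggatacctcaGTGGCAAatcgttactc
RPN10, chr8:498888-498914, minus strand: taaacaagaaGTGGCAAcaacatcagc

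Proteasome genes were lower in wild-type S cells than in wild-type G1 cells throughout the complex. All 35 were called lower by edgeR's quasi-likelihood test (Benjamini-Hochberg adjusted p below 0.1) and none higher, where 43.3% of all 5662 genes tested were called lower and 40.4% higher. Over the 35 genes the log2 fold change had a median of -0.83, which is 0.564 of the wild-type G1 level, beside -0.02 over all genes. The genes lay close together, with an SD of their log2 fold changes of 0.20 beside 1.06 over all genes. In all 35 genes the 4 S samples lay below the 4 wild-type G1 samples, as they did in 38.1% of all genes. Each of the 35 calls held under all 22 alternatives tried.

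**Figure D1:**
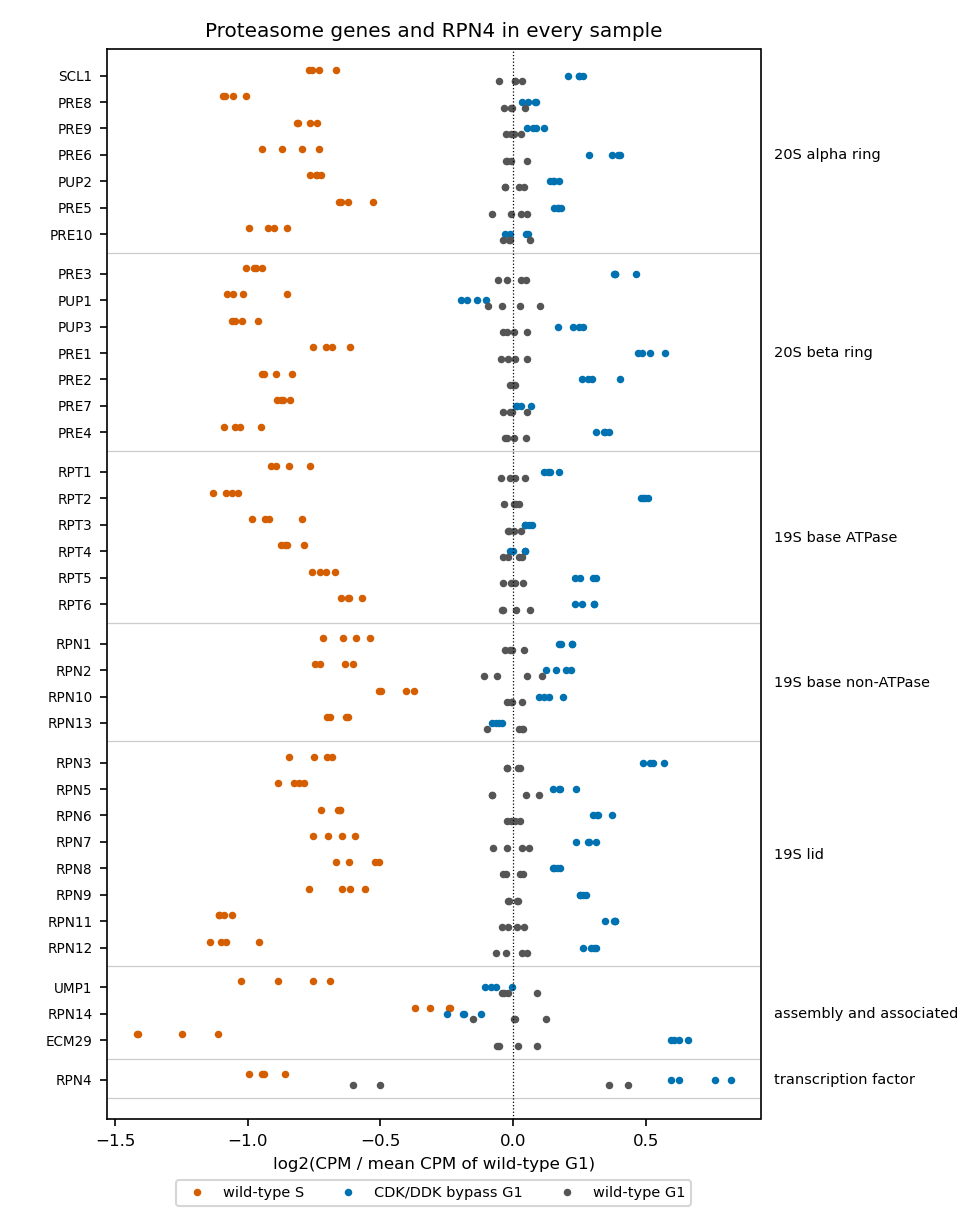
Levels of the 35 proteasome genes and RPN4 in each of the 12 samples, as log2 of CPM over the mean of wild-type G1. Points are samples, coloured by group and arranged by subcomplex. The S samples lie to the left of the wild-type G1 samples in all 35 proteasome genes, and the 4 wild-type G1 samples of RPN4 fall into a lower and a higher pair.

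Every subcomplex was lower in S cells, to different extents. The median log2 fold change against wild-type G1 was -0.78 in the alpha ring, -0.97 in the beta ring, -0.85 in the base ATPases, -0.64 in the base non-ATPases and -0.71 in the lid. ECM29, whose product holds core and regulatory particles together, stood lowest of the 35. In counts scaled to the library size (CPM), it had 41.6, 45.7, 37.1 and 37.0 CPM in S cells, against 100.0, 105, 95.2 and 94.8 CPM in wild-type G1 cells (log2 fold change -1.30 ± 0.064 SE, adjusted p = 5.49e-10, edgeR). The next lowest was RPN11, the deubiquitinase of the lid. It had 114, 117, 113 and 113 CPM in S cells, against 250.1, 240.0, 245 and 236 CPM in wild-type G1 cells (log2 fold change -1.09 ± 0.033, adjusted p = 3.76e-12, edgeR). In both genes the highest S sample was below the lowest wild-type G1 sample by more than either group's own range.

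The smallest differences were those of RPN14 and RPN10. RPN14 encodes a chaperone that assists assembly of the base and is not part of the finished proteasome. It had 34.4, 33.0, 36.3 and 36.1 CPM in S cells, against 46.6, 38.5, 43.0 and 42.8 CPM in wild-type G1 cells (log2 fold change -0.29 ± 0.063, adjusted p = 8.65e-04, edgeR). The groups did not overlap, but the gap between them was smaller than the range within wild-type G1. RPN10, a ubiquitin receptor of the base, had 171, 175, 160.2 and 159 CPM in S cells, against 225, 231, 226 and 223 CPM in wild-type G1 cells (log2 fold change -0.44 ± 0.039, adjusted p = 2.27e-07, edgeR). Among the genes of the proteolytic beta subunits, the log2 fold change was -0.97 for PRE3, -0.997 for PUP1 and -0.90 for PRE2, all 3 called lower.

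**Figure D2:**
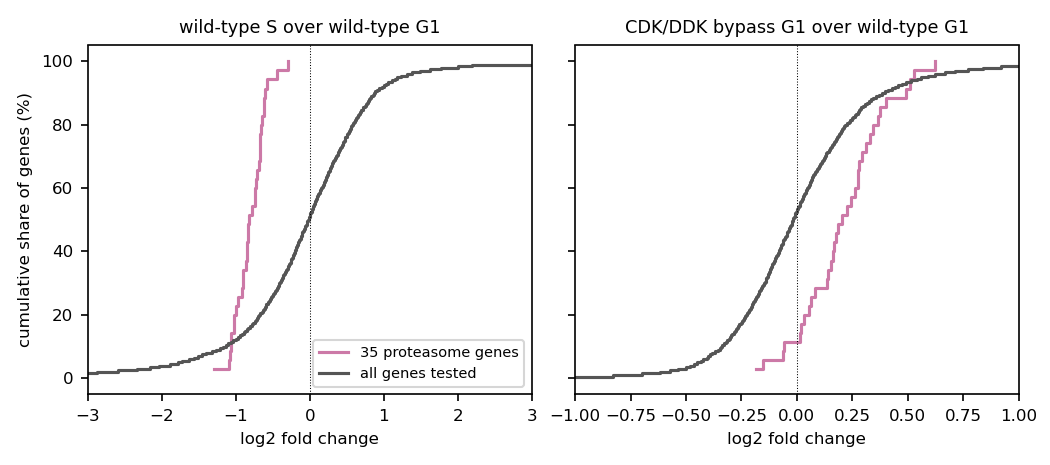
Cumulative share of genes (%) by log2 fold change for the 35 proteasome genes and for all genes tested, in wild-type S over wild-type G1 (left) and in CDK/DDK bypass G1 over wild-type G1 (right, on a narrower axis; genes outside an axis are not drawn). The proteasome genes have medians of -0.83 and 0.20, beside -0.02 over all genes in both panels.

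Against CDK/DDK bypass G1 cells, wild-type S cells were again lower in nearly the whole set, and this comparison shares its S samples with the one above. Of the 35 genes, 34 were called lower and none higher, where 43.6% of all genes were called lower and 41.5% higher. The median log2 fold change was -0.96, or 0.513 of the bypass level, beside -0.02 over all genes. The groups did not overlap in the same 34 genes, as in 41.6% of all genes. RPN14 was the exception, with 34.4, 33.0, 36.3 and 36.1 CPM in S cells, against 39.3, 37.6, 35.96 and 37.5 CPM in bypass cells, whose ranges overlapped (log2 fold change -0.10 ± 0.063, adjusted p = 0.1455, edgeR). It was called lower with spike-in totals (adjusted p = 0.0486) and with replicates 1 and 2 alone (adjusted p = 0.0546).

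The lowest in S cells relative to bypass cells were ECM29, with a log2 fold change of -1.92 ± 0.064 (adjusted p = 9.64e-12, edgeR), and RPT2, an ATPase of the base that takes part in opening the gate of the core. RPT2 had 175, 181, 169 and 178 CPM in S cells, against 520.4, 527, 518 and 523 CPM in bypass cells (log2 fold change -1.57 ± 0.033, adjusted p = 1.24e-13, edgeR). The RPT2 level in S cells was thus 0.337 of that in bypass cells, in samples that scattered by a few percent. Apart from RPN14, RPN10 differed least. It had 171, 175, 160.2 and 159 CPM in S cells, against 249, 242, 245 and 258 CPM in bypass cells (log2 fold change -0.58 ± 0.039, adjusted p = 1.33e-08, edgeR), again without overlap.

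In CDK/DDK bypass G1 cells most proteasome genes were slightly higher than in wild-type G1 cells, and the size of the difference varied between genes. Of the 35, 26 were called higher and 2 lower, where 26.0% of all genes were called higher and 28.5% lower. The median log2 fold change was 0.20, or 1.15 times the wild-type G1 level, beside -0.02 over all genes. In 27 genes the 4 bypass samples lay above the 4 wild-type G1 samples, as they did in 22.1% of all genes. All 8 lid genes were called higher, as were 5 of 7 in the alpha ring, 5 of 7 in the beta ring, 4 of 6 base ATPases and 3 of 4 base non-ATPases. With counts summed within the similar replicate pairs, which leaves 2 values a group, 17 genes were called higher and 0 lower, where 12.8% of all genes were called higher and 12.8% lower. With spike-in totals, which shift the median over all genes to 0.20, 31 were called higher and 0 lower, where 44.8% of all genes were called higher and 4.45% lower.

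ECM29 was the highest of the 35 in this comparison, with 152, 151, 149 and 156 CPM in bypass cells, against 100.0, 105, 95.2 and 94.8 CPM in wild-type G1 cells (log2 fold change 0.62 ± 0.059, adjusted p = 5.67e-06, edgeR). RPN3, a structural subunit of the lid, followed. It had 490.0, 478, 486 and 505 CPM in bypass cells, against 335, 346, 334 and 345 CPM in wild-type G1 cells (log2 fold change 0.53 ± 0.040, adjusted p = 9.39e-07, edgeR). Neither gene showed any overlap between the groups, and the same held for PRE1 of the beta ring (0.51 ± 0.040) and for RPT2 (0.49 ± 0.032).

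The 2 genes called lower were PUP1 and RPN14. PUP1 encodes the beta subunit with trypsin-like activity. It had 234, 229.7, 245 and 239.9 CPM in bypass cells, against 256, 247, 268 and 283 CPM in wild-type G1 cells (log2 fold change -0.15 ± 0.055, adjusted p = 0.0374, edgeR). The highest bypass sample was just below the lowest wild-type G1 sample, so that the groups only narrowly missed each other. RPN14 had 39.3, 37.6, 35.96 and 37.5 CPM in bypass cells, against 46.6, 38.5, 43.0 and 42.8 CPM in wild-type G1 cells (log2 fold change -0.18 ± 0.062, adjusted p = 0.0271, edgeR), and here the groups overlapped. Both calls were lost with spike-in totals, where the log2 fold change was 0.066 for PUP1 and 0.026 for RPN14, and with summed pairs (adjusted p = 0.199 for PUP1 and 0.150 for RPN14).

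The other 7 genes were not called, and they come from several subcomplexes. In the core these were PRE8 and PRE10 of the alpha ring and PRE7 of the beta ring. PRE8 had 249, 257, 253 and 258 CPM in bypass cells, against 250.5, 242, 241 and 237 CPM in wild-type G1 cells (log2 fold change 0.07 ± 0.034, adjusted p = 0.1318, edgeR). PRE10 had 310.0, 306, 325 and 323 CPM in bypass cells, against 327, 304, 309.7 and 309 CPM in wild-type G1 cells (log2 fold change 0.016 ± 0.040). PRE7 had 342, 356, 343 and 346 CPM in bypass cells, against 331, 352, 336 and 338 CPM in wild-type G1 cells (log2 fold change 0.032 ± 0.033). The groups overlapped in all 3 genes.

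In the base, the ATPase genes RPT3 and RPT4 and the ubiquitin receptor gene RPN13 were not called. RPT3 had 376, 379, 376 and 383 CPM in bypass cells, against 360.1, 359, 364 and 372 CPM in wild-type G1 cells (log2 fold change 0.057 ± 0.040), without overlap. RPT4 had 437, 423, 419.9 and 436 CPM in bypass cells, against 433, 430.5, 417 and 413 CPM in wild-type G1 cells (log2 fold change 0.019 ± 0.034). RPN13 had 144, 145, 146 and 143 CPM in bypass cells, against 154, 154, 153 and 141 CPM in wild-type G1 cells (log2 fold change -0.059 ± 0.039). A single low wild-type G1 sample brought its groups into overlap. UMP1, a chaperone of core particle maturation that the new proteasome degrades, had 149, 157, 147 and 151 CPM in bypass cells, against 168, 156, 154 and 154 CPM in wild-type G1 cells (log2 fold change -0.064 ± 0.062), also overlapping. Single libraries decided a few calls near the threshold: PRE9 was not called without bypass replicate 1 (adjusted p = 0.136), bypass replicate 4 (0.105) or wild-type G1 replicate 3 (0.135). PRE8 was called higher without wild-type G1 replicate 1 (0.0958), and RPN13 lower without wild-type G1 replicate 4 (0.0544).

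The medians of the genes with the full element and of those without it lay apart in each comparison. Of the 28 genes with GGTGGCAAA, 23 were called higher and 0 lower in bypass cells relative to wild-type G1 cells, with a median log2 fold change of 0.27 and a range of 0.016 to 0.62. Of the 7 without it, 3 were called higher (PRE5, RPN8 and RPN10) and 2 lower (PUP1 and RPN14), with a median of -0.059 and a range of -0.18 to 0.17. Over all genes tested, 26.0% were called higher and 28.5% lower in this comparison, and the 2 lower of the 7 are near that share. In S cells relative to bypass cells the median was -0.997 in the 28 genes (range -1.92 to -0.82) and -0.74 in the 7 (range -0.85 to -0.10). In S cells relative to wild-type G1 cells it was -0.84 in the 28 and -0.61 in the 7. These are descriptions of a small split, and no test was made of it.

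**Figure D3:**
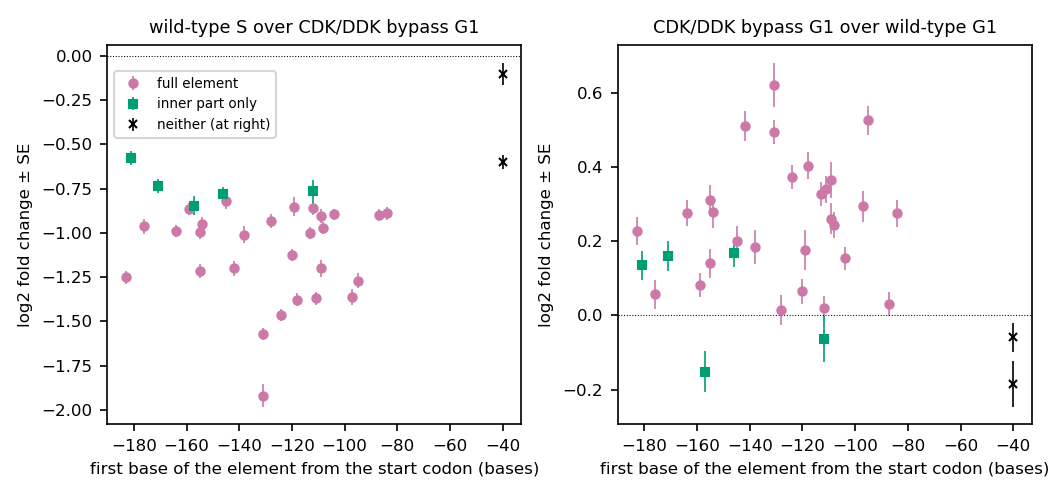
Log2 fold change with its SE (vertical axes) against the first base of the element, in bases from the start codon (horizontal axes), for the 35 proteasome genes in wild-type S over CDK/DDK bypass G1 (left) and CDK/DDK bypass G1 over wild-type G1 (right). Circles are the 28 genes with the full element, squares the 5 with its inner letters, and crosses the 2 with neither, which have no position and are drawn at the right. The 4 genes below 0 by more than 0.05 in the right panel are squares or crosses.

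Outside the 35 genes, 36 other genes had the full element in a window of their own and passed the filter. In S cells relative to wild-type G1 cells, 25 of these were called lower and 8 higher (median log2 fold change -0.53), beside 43.3% lower and 40.4% higher over all genes. Relative to bypass cells, 28 were called lower and 7 higher in S cells (median -0.67), beside 43.6% and 41.5%. In bypass cells relative to wild-type G1 cells, 22 were called higher and 7 lower (median 0.18), beside 26.0% and 28.5%. The median over all genes was -0.02 in each comparison. Their spread was wider than that of the proteasome genes, with an SD of 0.78 beside 0.17 for the 28 in S cells relative to wild-type G1 cells. A further 7 genes share the element of a neighbouring proteasome gene and were not counted among the 36.

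RPN4 had 126, 127, 122 and 134 CPM in wild-type S cells, 375, 367, 412 and 429 CPM in bypass cells, and 172, 159.9, 312 and 328 CPM in wild-type G1 cells. The 3 groups did not overlap, but the wild-type G1 samples formed a low pair, replicates 1 and 2, and a high pair, replicates 3 and 4. RPN4 was lower in S cells than in wild-type G1 cells (log2 fold change -0.93 ± 0.20, adjusted p = 7.32e-04, edgeR) and than in bypass cells (-1.64 ± 0.20, adjusted p = 4.89e-06). It was higher in bypass cells than in wild-type G1 cells (0.70 ± 0.19, adjusted p = 0.010), a call that was lost with summed pairs (adjusted p = 0.145). In rank, 13.8% of all genes had a lower log2 fold change than RPN4 in S cells relative to wild-type G1 cells, and 96.9% had a lower one in bypass cells relative to wild-type G1 cells.

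The RPN4 differences from wild-type G1 varied with the replicate pair. With replicates 1 and 2 alone, the log2 fold change of RPN4 in S cells relative to wild-type G1 cells was -0.38, and with replicates 3 and 4 alone it was -1.32. In bypass cells relative to wild-type G1 cells it was 1.17 with replicates 1 and 2 and 0.39 with replicates 3 and 4, while S relative to bypass cells gave -1.55 and -1.71. The mean RPN4 level of replicates 3 and 4 was 1.93 times that of replicates 1 and 2 in wild-type G1, 1.13 times in bypass and 1.01 times in S. The coefficient of variation of RPN4 was 3.93% in S, 7.53% in bypass and 36.8% in wild-type G1 cells.

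The proteasome genes did not share this split. In wild-type G1 the same ratio was 0.891 to 1.09 over the 35 genes, with a median of 0.980 and 10 genes above 1. Their median coefficient of variation was 4.07% in S, 2.05% in bypass and 2.59% in wild-type G1 cells. The median of the 35 genes relative to wild-type G1 was 0.557, 0.576, 0.587 and 0.592 in the 4 S samples and 1.17, 1.15, 1.13 and 1.17 in the 4 bypass samples, against 1.01, 1.01, 0.992 and 0.989 in the 4 wild-type G1 samples. The heat shock genes did show a split in wild-type G1. The ratio of replicates 3 and 4 to 1 and 2 was above 1 in 7 of 8 (median 1.53), and was 2.43 for BTN2, 2.21 for SSA4 and 0.826 for HSP26. The share of all genes with a ratio above 1 was not measured, so these counts cannot be set against it. The part of what separates these pairs in the RPN4 values was not tested.

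**Figure D4:**
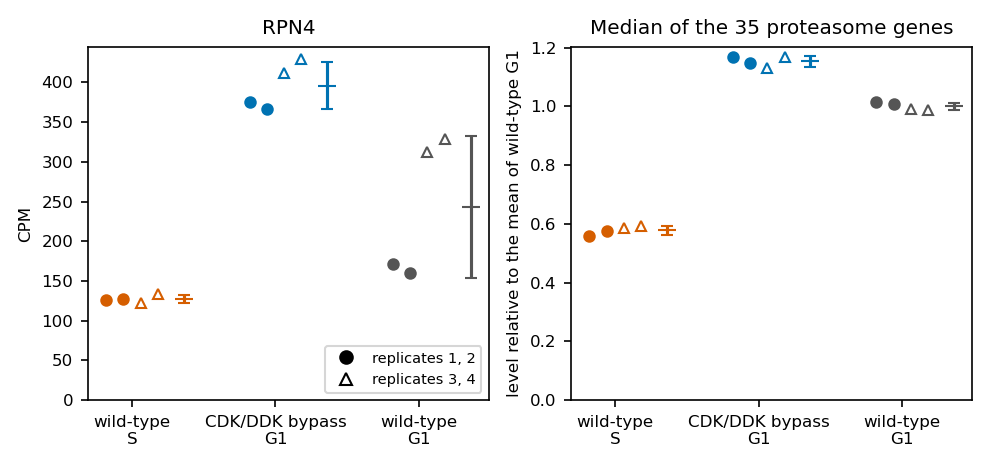
RPN4 in CPM (left) and the median level of the 35 proteasome genes relative to their mean in wild-type G1 (right), in each sample of the 3 groups. Filled circles are replicates 1 and 2, open triangles replicates 3 and 4, and the dash with bars beside each group is the mean ± SD (n = 4). RPN4 in wild-type G1 falls into 172 and 159.9 CPM in replicates 1 and 2, and 312 and 328 CPM in replicates 3 and 4, while the proteasome median stays between 0.989 and 1.01.

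The genes that act on RPN4 or its product were measured as a list of 7. The activators Hsf1, Yap1, Pdr1 and Pdr3 act on the RPN4 promoter, and Ubr2, Mub1 and Rad6 form the ligase that ubiquitinates Rpn4. In S cells relative to wild-type G1 cells 4 of 7 were called lower (HSF1 -0.50, YAP1 -0.65, PDR1 -0.28 and RAD6 -0.21, as log2 fold changes) and 0 higher, with a list median of -0.21 beside -0.02 over all genes. The count of lower genes is near the 43.3% of all genes called lower in this comparison. Relative to bypass cells, all 7 were called lower in S cells (median -0.33), beside 43.6% of all genes. In bypass cells relative to wild-type G1 cells 5 were called higher and 0 lower (median 0.23), beside 26.0% and 28.5% of all genes, with 0.59 ± 0.091 for UBR2, 0.35 ± 0.037 for YAP1 and 0.28 ± 0.036 for HSF1. Activators and ligase genes were thus both among those that rose. The size for UBR2 varied with the replicate pair. In replicates 1 and 2, UBR2 averaged 48.8 CPM in bypass cells and 28.5 CPM in wild-type G1 cells. In replicates 3 and 4 it averaged 46.3 CPM and 34.7 CPM.

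Of 13 proteasome genes outside the naming rule, 9 were called lower and 3 higher in S cells relative to wild-type G1 cells (median log2 fold change -0.67), and likewise 9 and 3 in S cells relative to bypass cells (median -0.72), beside 43.3% lower and 40.4% higher, and 43.6% lower and 41.5% higher, over all genes. The lower ones included UBP6, a deubiquitinase bound to the regulatory particle (-1.05 ± 0.048), SEM1, a small lid subunit (-1.01 ± 0.041), and the base chaperone gene NAS2 (-1.26 ± 0.052), all against wild-type G1. The higher ones were IRC25 (0.42 ± 0.075) and POC4 (0.65 ± 0.11), which encode the partners of a chaperone of the alpha ring, and CIC1 (0.45 ± 0.15), whose product also acts in ribosome biogenesis. The size for CIC1 rested on the wild-type G1 pair: S cells were at 1.10 times the wild-type G1 mean in replicates 1 and 2 (158 CPM against 143 CPM) and at 1.78 times in replicates 3 and 4 (158 CPM against 88.3 CPM). In bypass cells relative to wild-type G1 cells 5 of 13 were called higher and 1 lower (median 0.058), and the higher count is not far from the 26.0% of all genes called higher, beside 28.5% lower. Among them were BLM10, an alternative cap of the core particle (0.58 ± 0.045), and UBP6 (0.55 ± 0.047), while HSM3, another base chaperone gene, was called lower (-0.29 ± 0.055). The windows of IRC25, POC4, CIC1 and HSM3 held neither form of the element.

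Of 10 ubiquitin and substrate delivery genes, 9 were called lower in S cells relative to wild-type G1 cells and 0 higher (median log2 fold change -0.67), beside 43.3% and 40.4% of all genes. The exception was RAD23, whose product carries ubiquitinated proteins to the proteasome (0.031 ± 0.045, not called). Relative to bypass cells 9 were called lower (median -0.82), beside 43.6% of all genes. UBI4, the polyubiquitin gene, was lowest in S cells relative to wild-type G1 cells (-1.78 ± 0.054), followed by UFD1 (-1.57 ± 0.058), which with CDC48 (-0.97 ± 0.042) belongs to the machine that extracts ubiquitinated proteins. In bypass cells relative to wild-type G1 cells 8 were called higher and 1, UFD2, lower (median 0.15), beside 26.0% and 28.5% of all genes. The windows of UBI4, UBA1 and CDC48 held the full element. The 8 heat shock genes were all called lower in S cells relative to wild-type G1 cells (median -1.56), beside 43.3% of all genes. All 8 were also called lower relative to bypass cells (median -2.02), beside 43.6%. In bypass cells relative to wild-type G1 cells 5 were called higher and 0 lower (median 0.56), beside 26.0% and 28.5% of all genes. This last difference varied with the wild-type G1 pair. As a log2 ratio of mean CPM, the list median was 0.77 in replicates 1 and 2, with 8 of 8 genes above 0, and 0.32 in replicates 3 and 4, with 6 of 8 above 0. In replicates 3 and 4, HSP104 had 1905 CPM in bypass cells, against 1947 CPM in wild-type G1 cells, and SIS1 had 677 CPM in bypass cells, against 850 CPM in wild-type G1 cells.

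Levels between genes were compared in TPM, a measure that divides counts by the annotated exon length before scaling to the library. The 35 genes summed to 5084 ± 95 TPM in S cells, 12055 ± 75.7 TPM in bypass cells and 10324 ± 129 TPM in wild-type G1 cells (SD, n = 4), which is 0.508%, 1.21% and 1.03% of all TPM. On this scale the median of all genes was itself shifted by a log2 ratio of -0.23 in S cells relative to wild-type G1 cells and -0.24 relative to bypass cells, so that the sums overstate the difference from the median gene. The proteasome subunits were close to each other in level. Over the 32 subunits of core and regulatory particle the highest gene mean, that of PUP3, exceeded the lowest, that of RPN9, by 2.54 times in S cells, 3.23 times in bypass cells and 3.31 times in wild-type G1 cells. Core subunits stood above regulatory particle subunits, with a ratio of their medians of 1.41 in S cells, 1.46 in bypass cells and 1.39 in wild-type G1 cells. The exon lengths were 597 to 867 bases in core genes and 471 to 2982 bases in regulatory particle genes. The part of gene length in these levels was not tested.

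**Figure D5:**
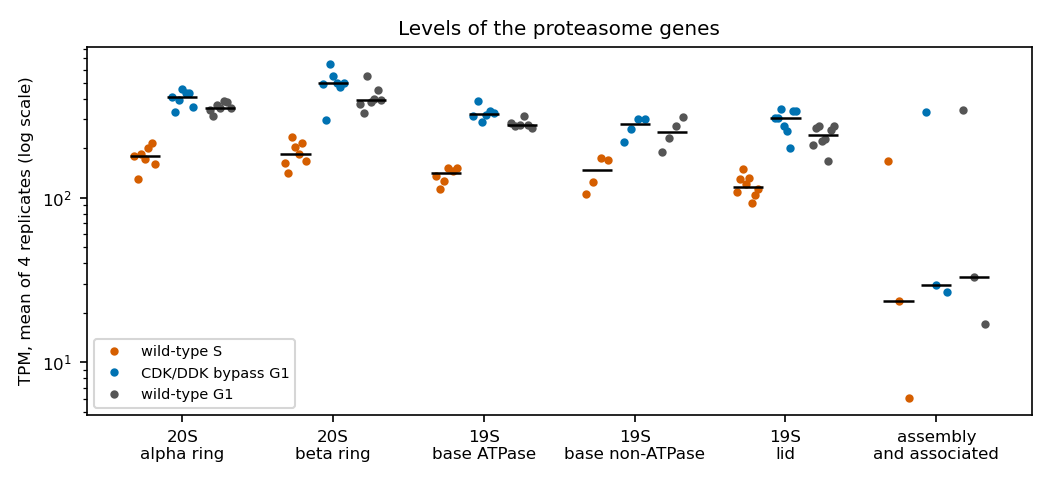
Mean TPM of 4 replicates (log scale) for each of the 35 proteasome genes, by subcomplex and group, with the median of each set as a line. The S median is below the bypass and wild-type G1 medians in every set, and the 2 low genes at right are RPN14 and ECM29.

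The factors that are not subunits spread widely. UMP1 was at 167, 331 and 343 TPM in S, bypass and wild-type G1 cells, which is in the range of the subunits. ECM29 was at 6.04, 26.6 and 17.1 TPM and RPN14 at 23.4, 29.3 and 33.1 TPM, below all 32 subunits in each group. The order of the 2 low genes was the same in the 3 groups, with RPN14 above ECM29.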

How the data were processed

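The authors aligned 42-base read pairs to sacCer3 with STAR 2.7.10a and deposited whole-number counts of read pairs per gene from HTSeq 2.0.1 for each of the 12 samples, without normalization. Rows of the counter's summary (9.28 to 11.5% of a sample's total) and 92 ERCC spike-ins were left out of library sizes and tests, and 0 columns of per-sample values were left unused. Groups and replicate numbers come from the sample labels. Fold changes, SE and adjusted p-values are from edgeR 4.0.16 in R 4.3.3 (filterByExpr with a minimum count of 10, TMM, glmQLFit and glmQLFTest on all 12 samples, 5662 genes, Benjamini-Hochberg adjusted p below 0.1). The SE was derived from the F statistic, as the log2 fold change over its square root. CPM use TMM-scaled library sizes. TPM use exon lengths of the R64 annotation.

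The members and lists were chosen with earlier results of these data known. Values of every sample are given for RPN4, for members with the 2 highest and 2 lowest log2 fold changes in a comparison, and for members not called or called against the majority. PRE1, RPT2 outside the comparison of S with bypass cells, PRE3, PRE2 and PRE9, and the examples from the related lists, were picked after their values were seen. Promoter windows were cut from the RefSeq R64 sequence, which is sacCer3, for 5976 genes. The alternatives were DESeq2 1.42.0, RLE normalization, spike-in totals, no filter on low counts, a replicate block, fitting the compared groups alone, an adjusted p below 0.05, replicate pairs alone or summed, and each replicate left out. TPM ratios in place of the fit were added after seeing the data.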

Additional observations from a re-analysis of the deposited data

Results flagged for a closer look

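Single samples stood apart from the other 3 of their group, by the gap to the nearest sample over the group's range, in 5 of the 108 groups of 4 samples examined (36 genes in 3 groups), where about 5.4 are expected by chance. RPN6 had 222 CPM in wild-type S replicate 1, below 232 to 234 CPM in the others. PRE3 had 339.5 CPM in CDK/DDK bypass G1 replicate 4, above 320.5 to 322 CPM in the others. RPN11 had 309 CPM in CDK/DDK bypass G1 replicate 1, below 316 to 317 CPM in the others. RPN13 had 140.5 CPM in wild-type G1 replicate 4, below 153 to 154 CPM in the others. UMP1 had 168 CPM in wild-type G1 replicate 1, above 154 to 156 CPM in the others. RPN4 in wild-type G1 was not among them, since its samples formed pairs.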

How the results depend on the processing

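In wild-type S relative to wild-type G1 all 35 proteasome genes were called lower under every alternative. The median log2 fold change of -0.83 became -1.03 with TPM ratios, -0.80 with RLE normalization, -0.75 with spike-in totals, -0.80 with DESeq2 and -0.76 with replicates 3 and 4, and ranged from -0.84 to -0.77 with single replicates left out. In S relative to bypass cells the median of -0.96 became -1.19 with TPM ratios and -1.10 with spike-in totals. In bypass relative to wild-type G1 cells the median of 0.20 became 0.42 with spike-in totals and 0.23 with replicates 1 and 2, and the count of genes called lower became 0 and 1. Spike-in totals turned PUP1 to 0.066 and RPN14 to 0.026. Relative to the median of all genes, the median was 0.22 by TMM, RLE and spike-in totals. Summed pairs gave 17 genes called higher, 0 lower (12.8% each of all genes), and RPN4 at 0.70 (adjusted p = 0.145, edgeR); fewer values entered that fit. Of the other changes in this comparison, counted once per gene and alternative, 11 gained a call and 16 lost one, with some genes counted repeatedly. In S relative to bypass cells 2 gained a call (both RPN14). The call of 18 of the 35 genes in bypass relative to wild-type G1 cells was the same under every alternative. The cause of these changes was not tested. The single replicate numbers did not pair the samples: same-numbered samples correlated between -0.020 and 0.20 in their deviations, and 5 of 12 samples correlated best with their own number. Where wild-type G1 was compared, deviations correlated above 0 across groups within replicates 1 and 2 or 3 and 4, and below 0 across these pairs. Correlations within these replicate pairs were 0.055 to 0.19 for S with wild-type G1 and 0.058 to 0.20 for bypass with wild-type G1, against -0.17 to -0.034 and -0.22 to -0.052 across pairs. For S with bypass they were -0.021 to 0.061 within and -0.051 to 0.029 across pairs. Deviations were taken from the group mean of each gene, so values above 0 within pairs force values below 0 on average across them. The values across pairs are therefore no separate result, and the correlations of a comparison are not independent of each other. The labels name no shared origin for the pairs. Fitted within each pair, bypass relative to wild-type G1 gave 27 genes higher and 1 lower in replicates 1 and 2. Over all 5672 genes tested there, 1864 were called higher and 1885 lower. Replicates 3 and 4 gave 27 higher and 2 lower, beside 1800 and 1834 of 5686 genes. The replicate block left 35 genes lower in S than in wild-type G1, beside 2459 of all 5662 genes. It left 34 lower in S than in bypass, beside 2476. In bypass relative to wild-type G1 it left 26 higher and 2 lower, beside 1507 and 1603. RPN4 was then at -0.88, -1.63 and 0.75 in the same order. Depth was no limit for most members, the lowest of which had 260 read pairs in a sample.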
